A study of Mus musculus with 4 samples.

Results

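Neurod6, its divergent neighbour Gm3279, the lincRNA 6430584L05Rik farther along the same chromosome and a Cre recombinase entry named ENSMUSGcre.1 were followed as 4 of the 55422 entries counted in single nuclei of the adult mouse hippocampus. They were selected by name after their difference between the genotypes had been seen in these data. Every difference of theirs between the genotypes is therefore given as a description, without a p-value, and is not read as a test. The Control group was Kat6a-f/f, with both copies of Kat6a flanked by loxP sites and no Cre (2 libraries). The Kat6a-cKO group carried NEX-cre together with Kat6a-f/f (2 libraries). Both groups therefore share the loxP sites, and the NEX-cre allele occurs only where Kat6a was to be deleted, so the allele and the loss of Kat6a cannot be told apart. How many copies of NEX-cre a mouse carried, and the sex and exact age of the mice, are not given in the sources used here. Nothing in the labels says that the 2 libraries of a group came from separate animals, so a spread between them may be technical.

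Neurod6, also called NEX, is a basic helix-loop-helix (bHLH) transcription factor of the neurogenic differentiation family, which binds the E-box motif with an E protein partner. It marks excitatory neurons of the neocortex and hippocampus after their last division and stays on in mature pyramidal neurons, while inhibitory neurons and glia lack it. In the NEX-cre mouse line the Cre coding sequence was put into the Neurod6 locus, so that Cre is made where Neurod6 is made and recombines loxP sites in pyramidal neurons and, to a lesser degree, in dentate granule neurons. Each knock-in copy gives up the Neurod6 coding sequence. Long intergenic noncoding RNAs (lincRNAs) are transcripts outside protein-coding genes that often stay in the nucleus.

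Neurod6 (ENSMUSG00000037984.9) lies on chr6:55677822-55681263 of GRCm38, on the minus strand, and has 2 exons in GENCODE M21. Gm3279 (ENSMUSG00000108063.1) lies on chr6:55684571-55694574 on the plus strand, with 3 exons, and starts 3.31 kb from the Neurod6 start, so the pair is transcribed away from each other. The third gene, 6430584L05Rik (ENSMUSG00000108228.2), lies on chr6:55396887-55412285 on the plus strand. Its start is 284 kb from that of Neurod6, on the side of the Neurod6 3′ end. GENCODE M21 lists no other gene that overlaps any of the 3, so no partly overlapping gene shares their reads by this annotation. The ENSMUSGcre.1 entry has no position and no described sequence, and which part of the Cre cassette it counts is not given in the sources used here.

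The 250 bases before each start are shown because they compare both ends of the intergenic stretch of the divergent pair with the start of the distant lincRNA. The stretch spans 3.31 kb, and its middle is not shown and was not searched for the motif. The windows are RefSeq sequences of GRCm38.p6, written 5′ to 3′ on the strand of the gene, with the E-box motif (CANNTG, the same on both strands) in capitals.
Neurod6, chr6:55681264-55681513, minus strand: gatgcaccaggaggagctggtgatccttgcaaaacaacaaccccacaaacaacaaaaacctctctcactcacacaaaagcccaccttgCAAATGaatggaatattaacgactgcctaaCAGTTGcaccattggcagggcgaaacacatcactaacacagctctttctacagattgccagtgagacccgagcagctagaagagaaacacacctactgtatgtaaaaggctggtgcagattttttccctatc
Gm3279, chr6:55684321-55684570, plus strand: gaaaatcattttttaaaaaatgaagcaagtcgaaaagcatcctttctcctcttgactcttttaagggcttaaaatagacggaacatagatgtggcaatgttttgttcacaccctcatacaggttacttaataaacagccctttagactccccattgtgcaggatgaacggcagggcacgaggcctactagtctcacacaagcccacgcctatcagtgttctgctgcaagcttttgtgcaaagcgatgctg
6430584L05Rik, chr6:55396637-55396886, plus strand: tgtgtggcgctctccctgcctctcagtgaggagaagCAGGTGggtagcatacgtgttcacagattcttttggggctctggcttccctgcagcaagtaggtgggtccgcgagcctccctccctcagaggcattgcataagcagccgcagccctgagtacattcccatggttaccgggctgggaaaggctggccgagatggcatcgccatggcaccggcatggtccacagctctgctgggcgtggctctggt
The Neurod6 window held 2 E-boxes, the 6430584L05Rik window 1 and the Gm3279 window 0. At least 1 E-box was in 66.2% of 32851 windows of 250 bases before mouse genes, and at least 2 were in 31.8%. The G and C share was 46% in the Neurod6 window, 43.6% in that of Gm3279 and 61.2% in that of 6430584L05Rik.

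The libraries held 171323466 to 186897245 counts, and 7747 to 8286 nuclei per library remained after doublet removal. Any 2 libraries shared 15 to 20 barcodes among their called nuclei. The classes with at least 30 nuclei in every library were CA1 (6502 nuclei), CA3 (3083), CA2 (436), dentate granule (12393), subiculum or deep-layer excitatory (1254), inhibitory (2491), astrocytes (497) and oligodendrocyte precursor cells (OPC, 650). Kat6a, counted over its whole gene, did not differ in CA3 (log2 fold change −0.02 ± 0.08 SE, edgeR adjusted p = 0.971) or CA1 (−0.05 ± 0.08, edgeR adjusted p = 0.926). Such a sum does not show whether the part between the loxP sites is missing.

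The cre entry followed the labels. It was at 0 counts in the kept nuclei of both Control libraries and at 157 and 150 counts in those of Kat6a-cKO replicates 1 and 2. Over all barcodes, each Control library held 1 count and the Kat6a-cKO libraries held 295 and 327. In CA3 it reached 2.61 and 2.81 counts per 1000000 counts of the class in that library (CPM), from 51 and 61 counts. In CA1 it reached 2.27 and 1.76 CPM, from 56 and 54 counts, and in CA2 2.06 and 1.51 CPM. Against the level that 3 counts in each Control library would give, averaged over both libraries, these means were at least 16.8-fold higher in CA3 and at least 19.9-fold higher in CA1.

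In dentate granule nuclei the cre entry was at 0.142 and 0.188 CPM, from 5 and 6 counts in 3021 and 2739 nuclei. Inhibitory neurons held 0 and 2 counts, and astrocytes and OPC held 0. In Kat6a-cKO, 3 counts in each library would have averaged 4.84 CPM in astrocytes and 3.36 in OPC. Both exceed the CA3 mean of 2.71, so these counts of 0 do not show absence. With the lower UMI minimum used for glia further down, oligodendrocytes of Kat6a-cKO held 2 and 3 counts (0.546 and 1.15 CPM). Microglia and astrocytes each held 0 and 1 there, OPC held 0, and all these classes held 0 in Control. The estimated level from free RNA, described further down, was 0.161 and 0.170 CPM in dentate granule nuclei, close to the measured level. With 5 and 6 counts and an estimate without an error, this does not decide whether granule nuclei held cre RNA of their own. The 4 CA3 clusters ranged in their Kat6a-cKO libraries from 1.82 to 7.29 CPM, the highest in a small cluster led by Gm32647, Csf2rb2 and Glra3. The cre entry is thus a sparse readout: at most 6.52% of CA3 nuclei of a library had a UMI of it, and after each nucleus was thinned to 4500 UMIs the shares were 0.982% (95% exact binomial interval 0.425 to 1.93%) and 1.01% (0.463 to 1.91%).

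**Figure D1:**
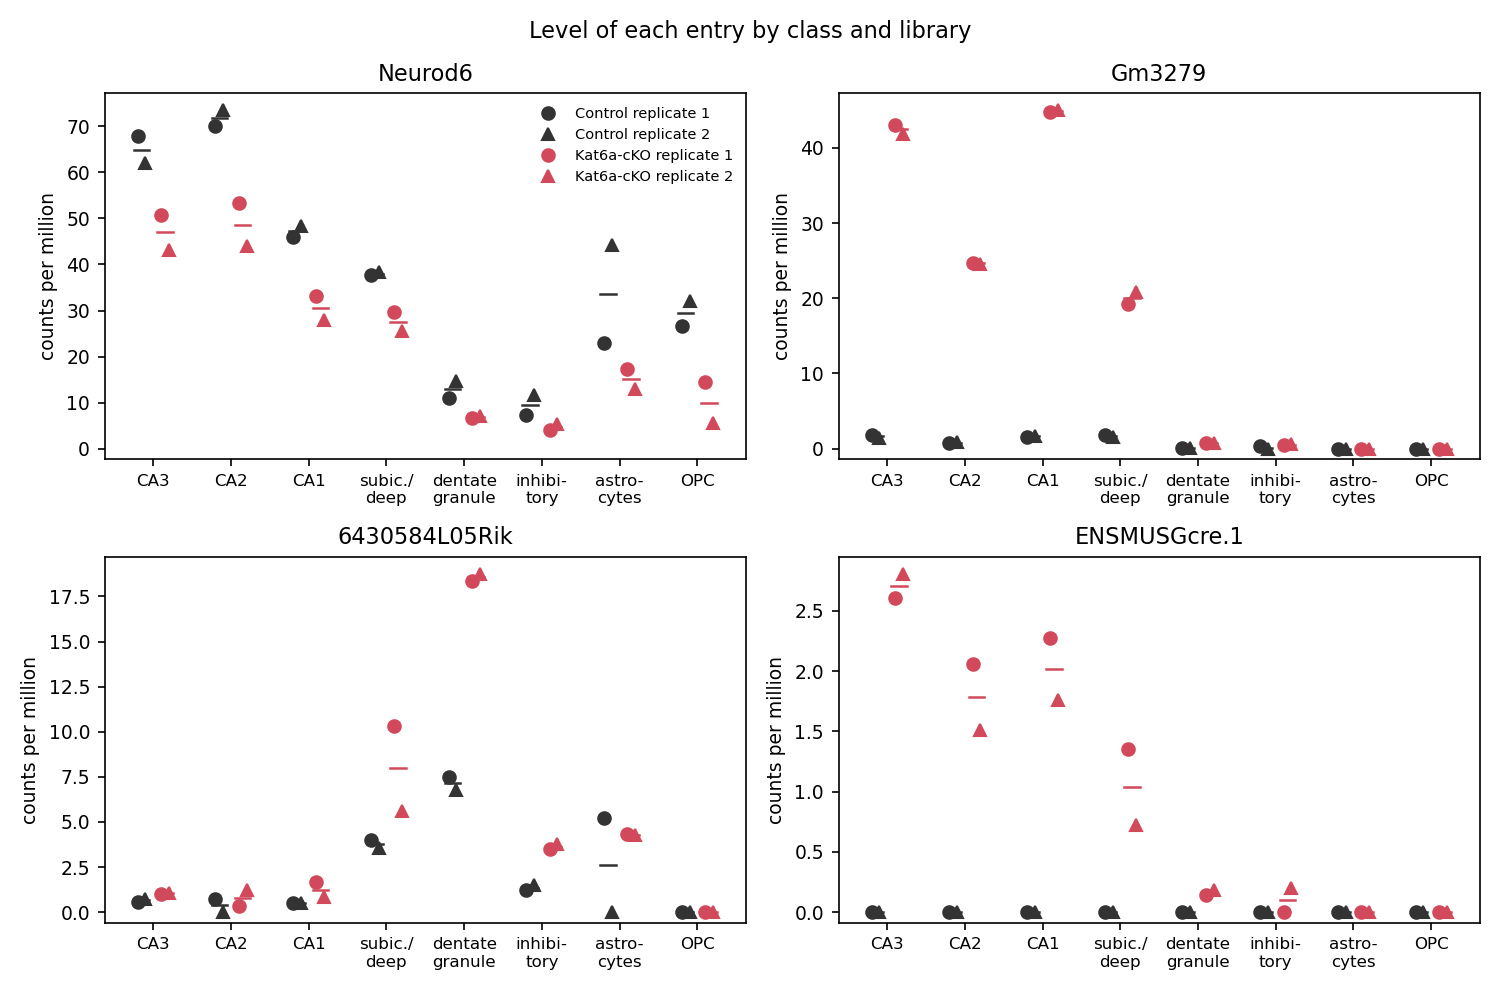
Level in CPM of the 4 entries (vertical axes, linear) in 8 classes of nuclei (horizontal axes), with 1 symbol per library and a line at the mean of the 2 libraries of a group. Neurod6 is lower in both Kat6a-cKO libraries (43.2 to 50.8 CPM in CA3 against 62 to 67.9), Gm3279 is near 0 in Control and at 41.9 to 45 CPM in CA3 and CA1 of Kat6a-cKO, and 6430584L05Rik is highest in dentate granule nuclei.

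Neurod6 was present in every pyramidal class, and its level was lower in Kat6a-cKO. In CA3 the Control libraries held 67.9 and 62 CPM, and Kat6a-cKO 50.8 and 43.2. In CA1 it was at 46 and 48.4 CPM in Control and at 33.2 and 28 in Kat6a-cKO. In CA2 the values were 70.2 and 73.7 CPM against 53.3 and 43.9. The 2 groups did not overlap in any of the 3 classes. Across all genes tested, the Kat6a-cKO pair lay wholly below the Control pair for 21.2% of 15928 genes in CA3 and 22.7% of 16623 in CA1, so an absence of overlap in this direction was common. No such share was computed for CA2. The log2 fold change was −0.45 ± 0.11 (SE) in CA3 and −0.61 ± 0.11 in CA1. The Kat6a-cKO mean was 0.724 times the Control mean in CA3, 0.648 times in CA1 and 0.676 times in CA2.

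Ordered by their Control means, the neuronal classes ran from CA2 and CA3 through CA1 and subiculum or deep-layer nuclei down to dentate granule and inhibitory nuclei. Astrocytes (33.55 CPM) and OPC (29.37) lay between subiculum or deep-layer and dentate granule nuclei. The Control libraries of CA2, CA3 and CA1 did not overlap with those of the class next below, while those of dentate granule and inhibitory nuclei overlapped. In Kat6a-cKO the libraries of CA2 and CA3 overlapped, as did those of CA1 and of subiculum or deep-layer nuclei. Among CA3 clusters, the one led by Armc4 had the lowest Neurod6 level (34.8 to 46.5 CPM in Control and 26.7 to 35.9 in Kat6a-cKO), and there the groups overlapped. Over the 32 clusters with at least 30 nuclei in every library, both Kat6a-cKO libraries were lower in 29 and the groups overlapped in 3. The share of all genes with this order was not computed by cluster. The 32 include dentate granule and inhibitory clusters, of classes whose level was close to or below the free RNA estimate given further down. They also include the astrocyte and OPC clusters and unnamed clusters with glial markers, of cells that should lack Neurod6. In astrocytes and OPC the estimated share of free RNA was higher than in the pyramidal classes. The count of 29 is therefore not read as lower expression in 29 kinds of cell.

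The Neurod6 level in cells that should lack it was not 0. Inhibitory neurons held 7.3 and 11.6 CPM in Control and 3.99 and 5.43 in Kat6a-cKO. Astrocytes held 22.9 and 44.2 CPM against 17.2 and 12.9, and OPC held 26.7 and 32.1 against 14.5 and 5.56. With a lower UMI minimum of 1000, at which oligodendrocyte and microglial clusters could be named, oligodendrocytes held 40.8 and 53.5 CPM in Control and 20 and 26.1 in Kat6a-cKO, and microglia held 60.3 and 81.6 against 30 and 38.5. In each of these classes the Kat6a-cKO pair lay below the Control pair, as in the pyramidal classes. That order held for 21.1% of the genes tested in inhibitory neurons, 18.6% in astrocytes and 21.3% in OPC. No such share was computed for oligodendrocytes and microglia. At the UMI minimum of 1000 the microglial cluster also held 102 CPM of the excitatory marker Slc17a7. The named oligodendrocyte clusters held 75.2 and 33.5 CPM of Slc17a7. The free RNA share described further down was not estimated for oligodendrocytes or microglia.

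Barcodes of 100 to 900 UMIs, too few for a nucleus under the threshold used here, showed where these molecules were found. Neurod6 stood at 258 and 338 CPM there in Control and at 152 and 206 in Kat6a-cKO. These barcodes held 64.6% and 69.6% of all Neurod6 counts of the Control libraries and 56.3% and 63.3% in Kat6a-cKO, against 16.3 to 21.1% of the counts of all genes. The level there was 6.66 to 9.81 times that in kept nuclei, at percentile 88.9 to 93.7 of the 15942 to 16257 genes compared in a library, whose median ratios lay between 1.16 and 1.24. The spread between the replicates (152 and 206) was as wide as the gap between the groups (206 and 258).

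From markers of other lineages, free RNA was estimated to give 2.03 to 2.78% of the counts of CA3 nuclei, 2.51 to 3.55% in CA1, 3.25 to 5.05% in dentate granule nuclei and 4.15 to 4.74% in inhibitory neurons. The estimate was higher in glia, at 7.68 to 11.3% in astrocytes and 7.79 to 10.1% in OPC. For Neurod6 in dentate granule nuclei this share predicted 13.0 and 16.9 CPM in Control, where 11.1 and 14.7 were measured. In Kat6a-cKO it predicted 5.96 and 6.68 CPM, where 6.71 and 7.13 were measured. The dentate level was therefore close to the estimated background in both groups. Its difference between them (log2 fold change −0.88 ± 0.14) is not read as one of expression in granule neurons. There the Kat6a-cKO pair lay below the Control pair for 21.6% of the genes tested. In inhibitory neurons the measured level was below the predicted background in all 4 libraries. In CA3 the predicted background was 4.17 to 9.08 CPM, or 8.28 to 14.6% of the level, and in CA1 13.5 to 24.8%. Less it, Neurod6 was at 61.8 and 53 CPM in Control CA3 and at 46.6 and 39.0 in Kat6a-cKO, still without overlap.

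**Figure D2:**
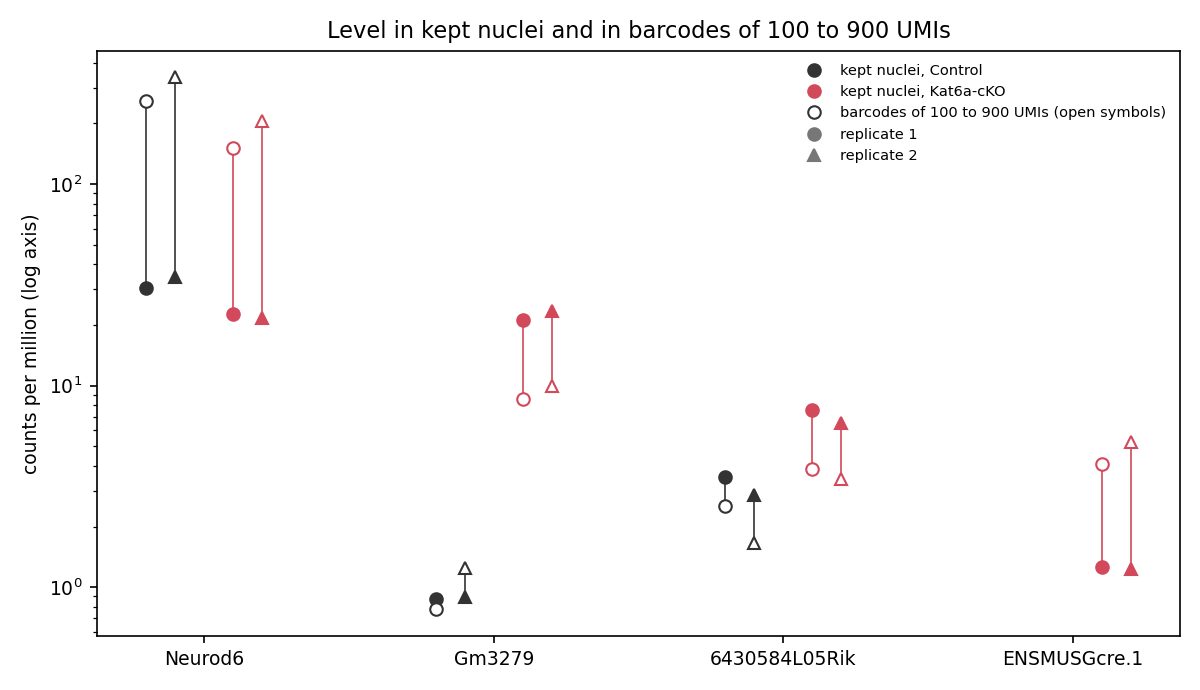
Level in CPM (log axis) of each entry in kept nuclei (filled) and in barcodes of 100 to 900 UMIs (open), with a line joining the 2 values of a library. Neurod6 and the cre entry lie higher in the low barcodes, by 6.66 to 9.81 times and by 3.24 and 4.24 times, while Gm3279 in Kat6a-cKO and 6430584L05Rik in every library lie lower there. The cre entry is not drawn for Control, where kept nuclei held 0 counts.

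Gm3279, a lincRNA of unknown function, showed the largest difference of the 4 in level. In CA3 it was at 1.84 and 1.40 CPM in Control, from 32 and 28 counts, and at 43.1 and 41.9 CPM in Kat6a-cKO, from 843 and 910 counts. In CA1 it was at 1.57 and 1.70 CPM in Control and at 44.8 and 45 in Kat6a-cKO. The ratio of the group means was 26.2 in CA3, 27.5 in CA1 and 30.7 in CA2. In CA2 the Control libraries held 0.750 and 0.853 CPM, from 5 counts together. The CA2 ratio therefore rests on few counts and is not read as higher than those of CA3 and CA1. The ratio was 11.6 in subiculum or deep-layer nuclei, where Control held 1.86 and 1.61 CPM and Kat6a-cKO 19.3 and 20.9. The log2 fold change was 4.74 ± 0.16 (SE) in CA3 and 4.80 ± 0.12 in CA1. No Control library came near a Kat6a-cKO library in these 4 classes. Both Kat6a-cKO libraries lay above both Control libraries for 15.7% of the genes tested in CA3 and 14.9% in CA1. This share was not computed for CA2 and for subiculum or deep-layer nuclei.

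Gm3279 was lower by far in nuclei outside these classes. Dentate granule nuclei held 0.0921 and 0.102 CPM in Control, from 4 counts each, and 0.740 and 0.813 in Kat6a-cKO, from 26 counts each. The free RNA estimate for the latter was 0.337 and 0.322 CPM, or 45.5% and 39.6% of the level. Inhibitory neurons held 0.424 and 0.592 CPM in Kat6a-cKO, beside a free RNA estimate of 0.406 and 0.411. Astrocytes and OPC held 0 counts in every library. At the UMI minimum of 1000, oligodendrocytes held 0 and 1 counts in Control and 4 and 1 in Kat6a-cKO, among 771 to 1072 nuclei per library. Astrocytes of Kat6a-cKO held 1 and 2 counts there (0.378 and 1.26 CPM), OPC 2 and 0 and microglia 1 and 0, and these 3 classes held 0 in Control. At the reported settings, 3 counts in each Kat6a-cKO library would have averaged 4.84 CPM in astrocytes and 3.36 in OPC. The counts of 0 therefore do not show absence. In glia, which carried Neurod6 counts in both groups, Gm3279 was thus at few counts in Kat6a-cKO.

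The share of nuclei with a Gm3279 UMI followed the same order. After thinning to 4500 UMIs, 18.4% (95% exact binomial interval 15.8 to 21.2%) and 18.4% (15.9 to 21.1%) of CA3 nuclei of Kat6a-cKO had one, against 0.814% (0.265 to 1.89%) and 1.05% (0.453 to 2.05%) in Control. Without thinning the Kat6a-cKO shares were 56% and 55.4%. For Neurod6, 23.5% and 22.1% of Control CA3 nuclei had a UMI after thinning, against 20.5% and 15.8% of those of Kat6a-cKO. In dentate granule nuclei 0.364% and 0.438% had a Gm3279 UMI in Kat6a-cKO after thinning. These intervals cover counting error only.

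Gm3279 was divided otherwise between nuclei and low barcodes. Of its Kat6a-cKO counts, 82.3% and 82% were in kept nuclei, beside 70.1% and 70.7% of the counts of all genes, and 7.83% and 7.99% were in barcodes of 100 to 900 UMIs. Its level in these barcodes was 0.404 and 0.424 times that in kept nuclei, at percentile 8.94 and 11.8 of the genes compared. In Control, from 157 and 176 counts in all barcodes, 71.3% and 63.1% were in kept nuclei, beside 68.4% and 67.4% of the counts of all genes, and the level in low barcodes was 0.890 and 1.38 times that in nuclei. The cre entry resembled Neurod6 in this respect, with 40.7% and 44.7% of its counts in the low barcodes and a level 3.24 and 4.24 times that in nuclei. Neurod6 and Gm3279, which start 3.31 kb apart, thus differed in the share of their counts found in nuclei.

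Summed over the pyramidal and subiculum or deep-layer classes, which held 41 to 50.6% of all counts in kept nuclei, were 80.8% and 87.8% of the Gm3279 counts of Kat6a-cKO and 77.1% and 82.7% of the cre counts. The same classes held 72.4 to 79.1% of the Neurod6 counts of the 4 libraries. For 6430584L05Rik they held 9.13 to 13.0%, and dentate granule nuclei held 68.4 to 75.7%. Neurod6, Gm3279 and the cre entry thus shared their main classes, and 6430584L05Rik did not share them.

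By cluster, both Kat6a-cKO libraries held more Gm3279 than both Control libraries in 22 of 32, without a share over all genes computed by cluster. In every cluster of CA1, CA3, CA2 and subiculum or deep-layer nuclei, and in the 5 unnamed excitatory clusters, the ratio of the means lay between 9.23 and 43.8. The highest ratio was in the unnamed cluster led by Gm12128 (0.624 to 0.881 CPM in Control, 28.6 to 37.3 in Kat6a-cKO). The lowest was in the deep-layer cluster led by Dpp10. In the Gm12128 cluster the Control libraries held 2270142 and 3203633 counts of all genes. Its Control level therefore rests on very few Gm3279 counts, and the order of the cluster ratios is not read as a ranking. The highest level was in the CA3 cluster led by Gm32647, with 50.4 and 67.2 CPM in Kat6a-cKO. The astrocyte cluster held 0, whereas an unnamed cluster with astrocyte markers that also held 118 CPM of the excitatory marker Slc17a7 had 11.5 and 14.8 CPM of Gm3279 in Kat6a-cKO. One dentate granule cluster, led by Spata13, overlapped between the groups, from 2 counts in each.

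**Figure D3:**
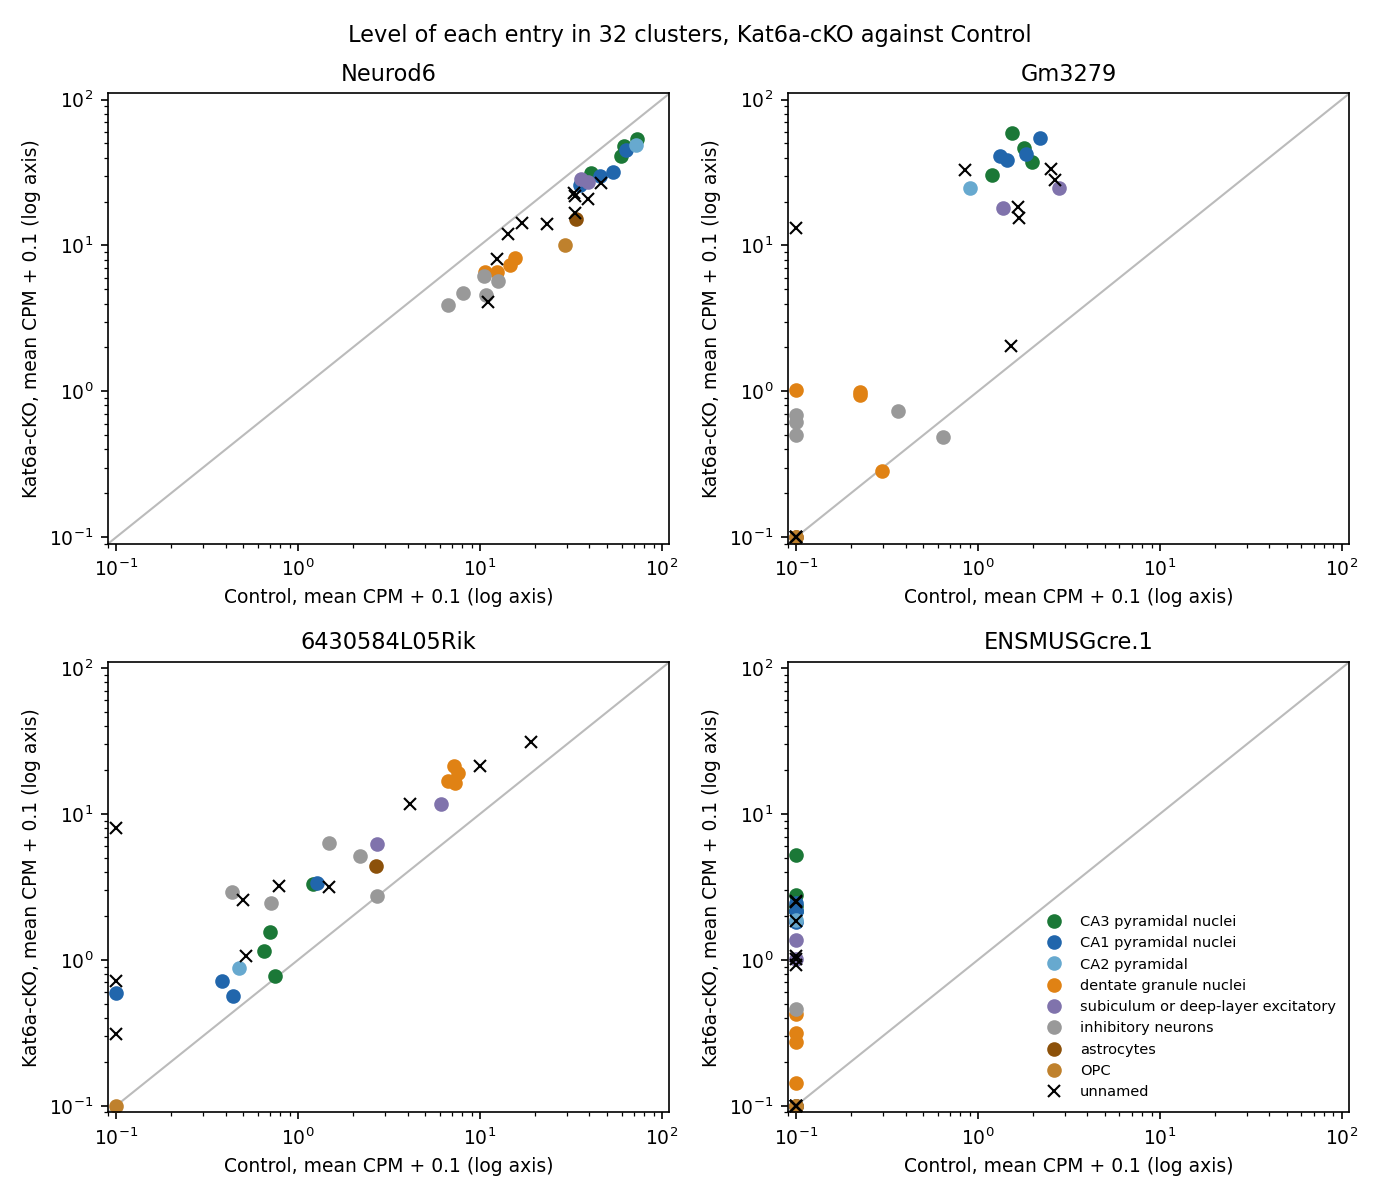
Mean CPM of each entry in 32 clusters, Kat6a-cKO (vertical) against Control (horizontal), both on log axes after adding 0.1, with a grey line where both are equal and colours for the class. Neurod6 lies below the line throughout, Gm3279 lies far above it in pyramidal and subiculum or deep-layer clusters, 6430584L05Rik lies above it in dentate granule clusters, and the cre entry is at 0 in Control.

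The third gene, 6430584L05Rik, also a lincRNA of unknown function, was distributed in another way. Its highest named class was dentate granule, with 7.50 and 6.76 CPM in Control, from 326 and 264 counts, and 18.4 and 18.8 CPM in Kat6a-cKO, from 646 and 600 counts. Free RNA was estimated to give at most 1.71% of that level. The ratio of the means was 2.60 and the log2 fold change 1.39 ± 0.11 (SE), beside 17.4% of the 17356 genes tested in dentate granule nuclei for which both Kat6a-cKO libraries lay above both Control libraries. The 4 dentate granule clusters each gave the same order, with ratios from 2.26 to 2.96.

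Inhibitory neurons held 1.23 and 1.48 CPM of 6430584L05Rik in Control and 3.48 and 3.75 in Kat6a-cKO, from 13 and 16 counts against 41 and 38. The ratio was 2.66 and the log2 fold change 1.42 ± 0.33. Of the 5 inhibitory clusters, 4 had both Kat6a-cKO libraries above both Control libraries, and in the cluster led by Hapln1 and Mctp2 the groups overlapped (2.59 to 2.65 CPM against 2.11 to 3.17). The 5 clusters together held the 13 and 16 Control counts, so the order within a cluster rests on few counts. No share over all genes was computed by cluster. Both Kat6a-cKO libraries lay above both Control libraries for 14.4% of the 14707 genes tested in inhibitory neurons. The free RNA estimate was 3.81 to 8.98% of that level, and the cre entry in the same nuclei was at 0 and 2 counts. Subiculum or deep-layer nuclei held 3.99 and 3.54 CPM against 10.3 and 5.63.

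In pyramidal nuclei 6430584L05Rik was low in both groups. CA3 held 0.575 and 0.749 CPM in Control and 1.02 and 1.06 in Kat6a-cKO, from 10 to 23 counts per library. CA1 held 0.489 and 0.522 CPM against 1.67 and 0.814. The log2 fold changes were 0.66 ± 0.38 and 1.28 ± 0.43, and the CA1 value was 0.69 without Kat6a-cKO replicate 1. In the largest CA3 cluster, led by Trps1 and Nectin3, the groups overlapped (0.622 to 0.673 against 0.609 to 0.735 CPM). An unnamed excitatory cluster led by Npsr1 had more of it than the dentate granule class in every library, with 15.9 to 22.2 CPM in Control and 26.9 to 35 in Kat6a-cKO. Another, led by Dcn and Rxfp1, held 6.75 to 13 CPM against 16.4 to 25.8 and overlapped with the dentate granule class in both groups. Over the 32 clusters both Kat6a-cKO libraries were above both Control libraries in 21, and the groups overlapped in 11. Here too no share over all genes was computed by cluster. Of its counts, 76.6 to 80.3% were in kept nuclei, beside 67.4 to 70.7% of the counts of all genes, and its level in low barcodes was 0.507 to 0.722 times that in nuclei.

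The levels of the 4 entries over the clusters of Kat6a-cKO were compared as correlations of log2(CPM + 1) over 32 clusters. The clusters share 2 libraries and differ in depth, so these are descriptions. Among 9659 genes with at least 20 CPM in a cluster, the cre entry was most like Neurod6 (r = 0.858) and next most like Gm3279 (r = 0.854). By rank correlation Gm45740 came first (0.839), then Gm3279 (0.828) and Neurod6 (0.820). The other 3 of the 5 most like it by Pearson correlation were Gm45740, Rasgrp1, an activator of Ras, and Fhl2, a LIM domain protein. For 6430584L05Rik the correlation with the others lay between −0.366 (Neurod6) and −0.226 (Gm3279).

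Gm3279 was most like Sv2b, a synaptic vesicle protein (r = 0.932), Fhl2 (0.930), Gm38413 and Rasgrp1, and Neurod6 ranked 26th with 0.808. Neurod6 in Control was most like Nr4a3, an orphan nuclear receptor induced by activity (r = 0.828), 2010111I01Rik (0.816), Ppp2r5c, a regulatory subunit of protein phosphatase 2A (0.803), Ccdc88c and Peak1. In Kat6a-cKO its 5 were Peak1, Nr4a3, Rprml, 2010111I01Rik and Rap1b, a small GTPase. Of these, Peak1, Nr4a3 and 2010111I01Rik had been among the Control 5. Gm3279 ranked 7th in Kat6a-cKO. In Control it was below the minimum level for this comparison and had no rank, so a change in its rank was not tested.

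**Figure D4:**
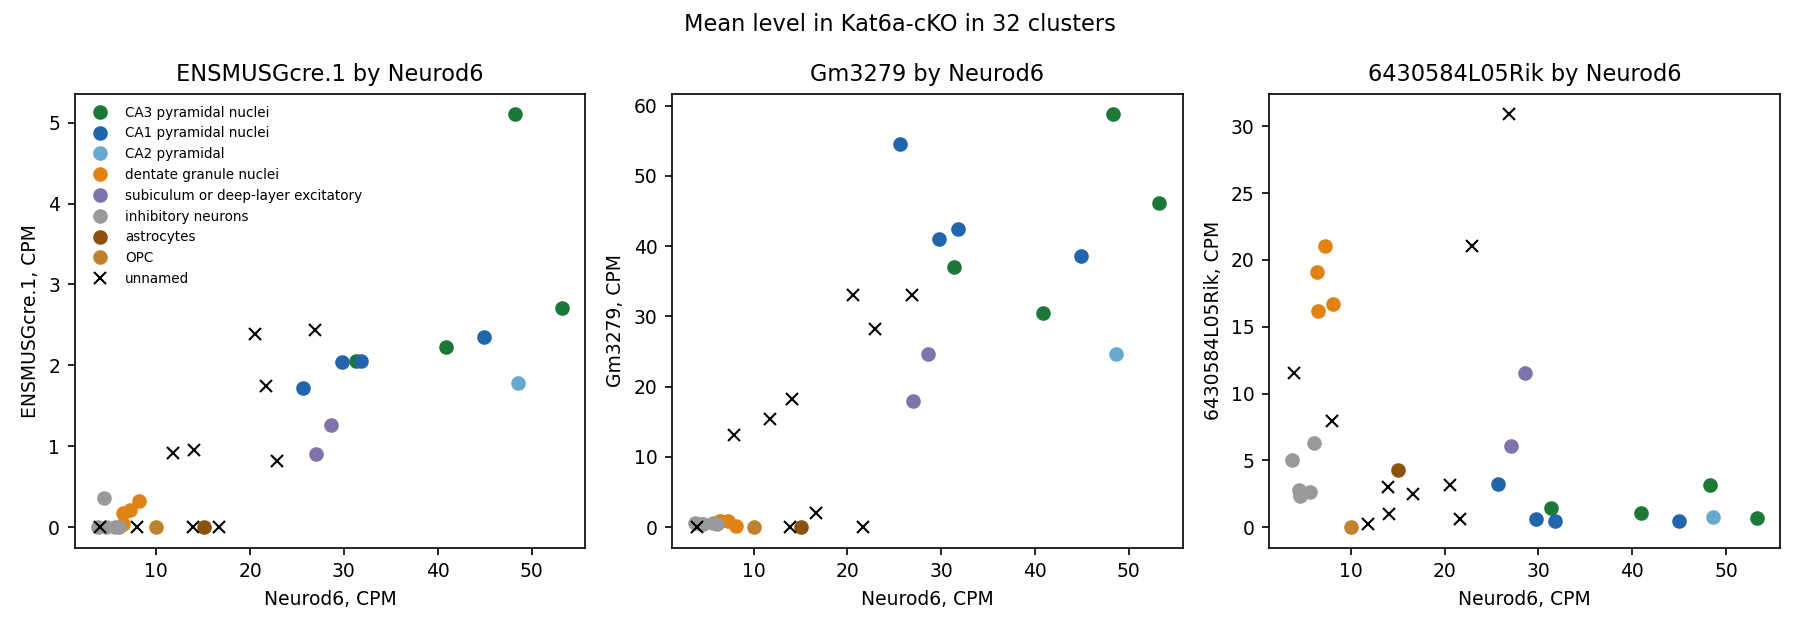
Mean CPM in Kat6a-cKO in 32 clusters, with Neurod6 on the horizontal axes and the cre entry, Gm3279 and 6430584L05Rik on the vertical axes, coloured by class. The cre entry and Gm3279 are higher in clusters with more Neurod6 (r = 0.858 and 0.808 on the log2 scale), the astrocyte and OPC clusters hold Neurod6 counts but 0 of both, and 6430584L05Rik is high in dentate granule clusters at low Neurod6.

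Single nuclei of Kat6a-cKO were compared for the presence of 2 entries at once. In CA3, 75.5% (95% exact binomial interval 61.1 to 86.7%) of the 49 nuclei with a cre UMI in replicate 1 had a Gm3279 UMI, against 54.7% (51.1 to 58.3%) of the nuclei without one. In replicate 2 the shares were 65.5% (51.9 to 77.5%) of 58 nuclei and 54.7% (51.2 to 58.1%). The nuclei with a cre UMI were deeper, with a median of 24680 against 22700 UMIs in replicate 1. After thinning, only 8 and 9 CA3 nuclei had a cre UMI, too few for a comparison. In CA1 there were 15 and 14, which are few too. Of these, 6 and 1 had a Neurod6 UMI, or 40% (16.3 to 67.7%) and 7.14% (0.181 to 33.9%). Among those without a cre UMI it was 13.3% (11.6 to 15.15%) and 10.3% (8.95 to 11.85%). These intervals did not overlap in replicate 1 and overlapped in replicate 2. A Gm3279 UMI was in 26.7% and 28.6% against 17.7% and 18.2%, with overlapping intervals. Without thinning, a Neurod6 UMI was in 60% against 38.3% and 32.1% against 34.4% of CA1 nuclei with and without cre. In CA3 the unthinned shares were 71.4% against 62.3% and 70.7% against 57.9%. Nuclei with a cre UMI were deeper each time. For cre and Neurod6 the unthinned intervals overlapped except in CA1 of replicate 1. For cre and Gm3279 the unthinned intervals overlapped except in CA3 of replicate 1 (61.1 to 86.7% against 51.1 to 58.3%). Gm3279 and Neurod6, after thinning, met in 28% (21 to 35.9%) of the CA3 nuclei with Gm3279 against 18.8% (15.9 to 22%) of those without in replicate 1, and in 16.5% (11.1 to 23%) against 15.7% (13.1 to 18.6%) in replicate 2. In CA1 the shares were 13.1% against 13.7% and 10.2% against 10.3%. For Gm3279 and Neurod6 the intervals of both shares overlapped after thinning in each of the 4 comparisons by library and class. Without thinning they did not overlap in CA3 of replicate 2, where 64.1% (59.7 to 68.3%) of the nuclei with Gm3279 had Neurod6 against 52.1% (47.1 to 57.1%) of those without, and the former had a median of 24860 UMIs against 22850.

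The genes around the locus were examined next, which addresses whether the difference extends to its neighbours. Within 1 Mb of the Neurod6 start there were 25 other genes, of which 9 were tested in CA3, 10 in CA1 and 10 in dentate granule nuclei. None of them passed the threshold of the edgeR quasi-likelihood test (Benjamini-Hochberg adjusted p under 0.05) in these classes, and DESeq2 called 0 too. The count at an unadjusted p under 0.05 was 1 in CA3, 2 in CA1 and 0 in dentate granule nuclei, where 7.90%, 8.51% and 9.95% of all genes tested had such a p. Among all genes, edgeR called 5 (0.0314%) of those tested for CA3, 12 (0.0722%) for CA1, 72 (0.415%) for dentate granule nuclei, 13 (0.159%) for astrocytes and 1 (0.0108%) for OPC, so few calls fall in a list of this size. The median log2 fold change of the tested neighbours was −0.06 in CA3, −0.04 in CA1 and −0.16 in dentate granule nuclei, beside medians over all genes of −0.0045, −0.0034 and 0.0034. The 3 tested neighbours within 0.5 Mb were below 0 in each class. They ran from −0.64 to −0.06 in CA3, −0.65 to −0.06 in CA1 and −0.69 to −0.07 in dentate granule nuclei. Whether this shared sign is more than other genes show was not tested. The counts of genes called among all genes moved by more than 1.5 times under most alternatives.

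On the side of 6430584L05Rik, the nearest tested protein-coding gene was Adcyap1r1, the receptor of the neuropeptide PACAP, at −229 kb from the Neurod6 start. In CA1 it was at 14.5 and 16.9 CPM in Control and at 12.4 and 7.52 in Kat6a-cKO (log2 fold change −0.65 ± 0.21 SE, edgeR adjusted p = 0.414). In dentate granule nuclei it was at 153 and 154.6 CPM against 137.7 and 139.8 (−0.14 ± 0.06, edgeR adjusted p = 0.503). Mindy4, a deubiquitinase at −478 kb, differed by −0.06 ± 0.12 in CA3 and −0.06 ± 0.10 in CA1. Crhr2, a receptor of the corticotropin-releasing hormone family at −548 kb, was tested in CA1 and dentate granule nuclei and differed by 0.74 ± 0.42 and −0.24 ± 0.20 (edgeR adjusted p = 0.686 and 0.788). Gars, the glycyl-tRNA synthetase at −643 kb, was the next one tested in CA3 and differed by −0.09 ± 0.09 there.

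On the side of Gm3279 only 2 protein-coding genes within 1 Mb were tested. Itprid1, at 156 kb, was at 10.7 and 9.19 CPM in Control CA3 and at 6.80 and 5.84 in Kat6a-cKO (−0.64 ± 0.17, edgeR adjusted p = 0.308). In CA1 it was at 10.2 and 7.01 CPM against 7.11 and 6.42 (−0.34 ± 0.20, edgeR adjusted p = 0.708). Its Control and Kat6a-cKO libraries did not overlap in CA3 and overlapped in CA1. Pde1c, a calmodulin-dependent phosphodiesterase at 888 kb, differed by −0.04 ± 0.13 in CA3 and by 0.21 ± 0.14 in CA1. Itprid1 in CA3 passed the threshold without Control replicate 2 (−0.78 ± 0.20, edgeR adjusted p = 0.0102) and without the filter on low counts (−0.64 ± 0.17, edgeR adjusted p = 0.0241). Adcyap1r1 in CA1 passed it without Kat6a-cKO replicate 1 (−1.06 ± 0.17, edgeR adjusted p = 0.00848) and without the filter (−0.65 ± 0.14, edgeR adjusted p = 0.00095).

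**Figure D5:**
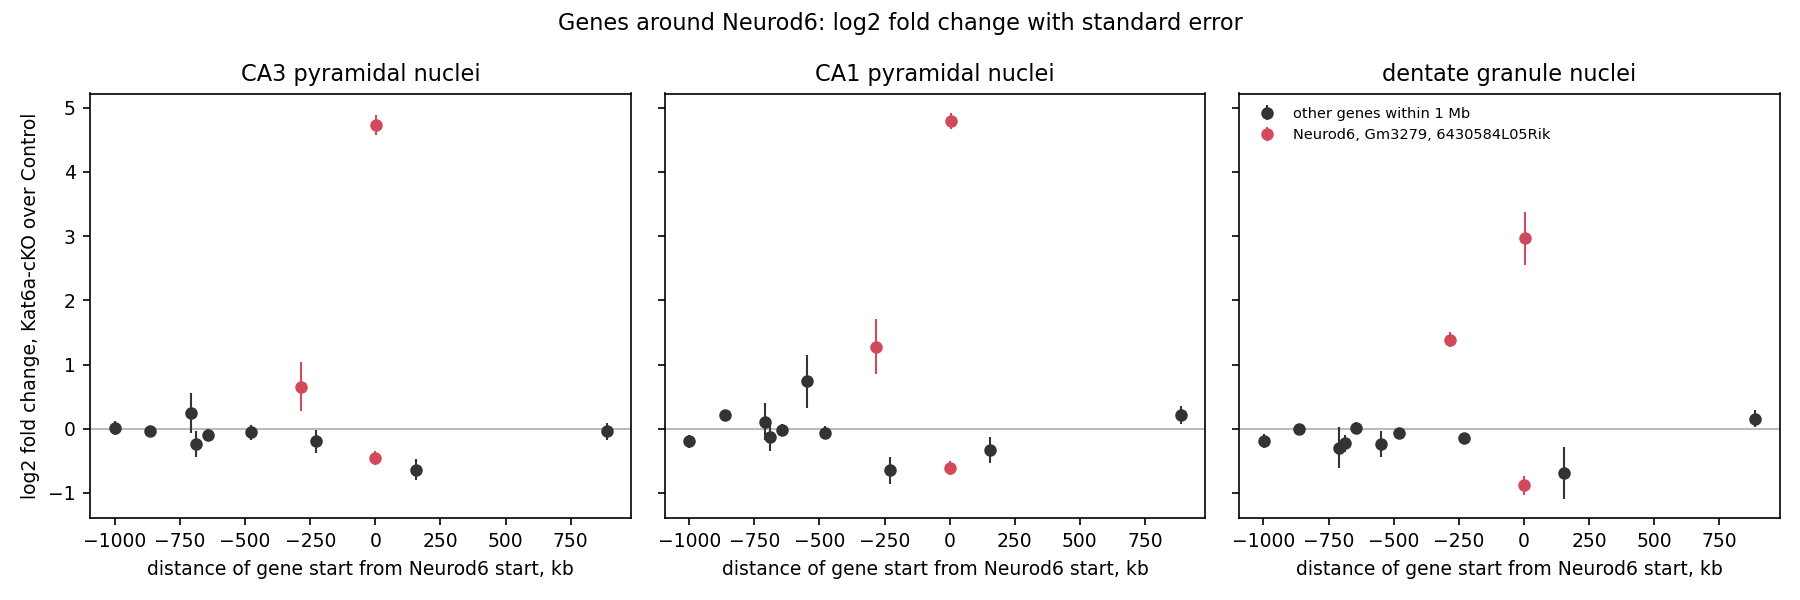
Log2 fold change of Kat6a-cKO over Control with its standard error (vertical) against the distance of the gene start from the Neurod6 start in kb (horizontal, negative toward 6430584L05Rik), in CA3, CA1 and dentate granule nuclei. Gm3279 stands at 4.74, 4.80 and 2.97, 6430584L05Rik at 0.66, 1.28 and 1.39 and Neurod6 at −0.45, −0.61 and −0.88, while the other tested genes lie between −0.69 and 0.74.

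The other bHLH genes of these neurons were counted as a family to which Neurod6 belongs. Of 33 genes (neurogenic factors, E proteins and their inhibitors), 17 were tested in CA3, 19 in CA1 and 22 in dentate granule nuclei. None passed the edgeR threshold in these classes, and DESeq2 called 0 as well. At an unadjusted p under 0.05 there were 2 of 17, 2 of 19 and 5 of 22, beside the 7.90%, 8.51% and 9.95% of all genes tested. Their median log2 fold change was 0.09 in CA3, −0.01 in CA1 and −0.02 in dentate granule nuclei.

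Neurod2, a close relative of Neurod6 in mature excitatory neurons, was at 52.5 and 59 CPM in Control CA3 and at 53.9 in both Kat6a-cKO libraries (log2 fold change −0.03 ± 0.08 SE, edgeR adjusted p = 0.959). In dentate granule nuclei it was at 62.9 and 64.8 CPM against 56.2 and 50.2 (−0.25 ± 0.08, edgeR adjusted p = 0.310). Neurod1, which acts in the birth of granule neurons, was tested in dentate granule nuclei only and stood at 0.199 to 0.599 CPM (−0.46 ± 0.47). Bhlhe22, a repressor that acts with Prdm8 in neurons, was at 22.2 and 23.5 CPM in Control dentate granule nuclei and at 17 and 19.6 in Kat6a-cKO (−0.31 ± 0.10, edgeR adjusted p = 0.279), and at 8.10 and 7.94 CPM against 6.23 and 6.16 in CA3 (−0.36 ± 0.15, edgeR adjusted p = 0.601). Tcf4, the most counted E protein partner here, differed by −0.01 ± 0.07 in CA3 and −0.01 ± 0.07 in CA1. Id2, which blocks E proteins, differed by −0.25 ± 0.33 in CA3 and −0.26 ± 0.16 in dentate granule nuclei.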

How the data were processed

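The counts are whole-number UMI counts per barcode and gene, deposited by the authors for each of 4 libraries with all barcodes included. Seurat 4.0.1 and the build mm10 are named in the submitters' processing notes; the aligner and counter are not given in the sources used here. Of 55422 entries, 54587 matched GENCODE M21 by versioned ID.

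Nuclei were barcodes with at least 500 UMIs and at least the 99th percentile of the top 5000 barcodes divided by 10. Scrublet doublets (expected rate 0.06) were removed, and nuclei were clustered with scanpy 1.11.5 (2000 variable genes, 30 components, 15 neighbours, Leiden resolution 1), without the 4 entries, Kat6a, the bHLH list and genes within 1 Mb. A cluster took a name if 50% or more of that name's markers, and no fewer than 3, stood 2-fold above the rest after adding 5 CPM. It stayed unnamed with under 20 nuclei, with 50% or more of the markers of a second lineage, or with more leading genes from another class. The same held for a low UMI count without a marker among the leading genes. At the main UMI minimum it also held for glial clusters with a median UMI count above 50% of their library. These naming thresholds were set after the clusters had been seen. Counts were summed per library and class, as the library is the replicate (2 per group), and tested with edgeR 4.0.16 (quasi-likelihood, TMM, filterByExpr, Benjamini-Hochberg over all genes, threshold 0.05) after the script had been tested on simulated data. Of the 4 entries, all passed the count filter in CA3 and CA1, and fewer in the other classes. An SE is the absolute log2 fold change divided by the square root of the F statistic of the quasi-likelihood test of that gene. It was not estimated apart from that test, and for the 4 entries it is part of the description only.

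The free RNA share of a class is the 25th percentile, over markers of other lineages with at least 10 CPM in barcodes of 100 to 900 UMIs, of the class level over the level in those barcodes. Intervals are exact binomial at 95% and cover counting error only. Named genes were the 4 entries, Kat6a, the 3 nearest tested protein-coding neighbours on each side, any called neighbour or bHLH gene, 5 fixed bHLH genes and the 5 genes most like an entry, of which one is not reported here. The entries and lists were chosen with earlier results of these data known. Alternatives were DESeq2 1.42.0, no TMM, no count filter, a replicate block, free RNA subtraction, a UMI minimum of 1000, Leiden resolution 2, doublets kept, other windows and each library left out.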

Additional observations from a re-analysis of the deposited data

How the results depend on the processing

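Of the alternative counts over all genes, 54 moved by over 1.5 times and 17 did not. Of those over the neighbour and bHLH lists, 8 moved and 73 did not. The counts of genes called were, in CA3, CA1, dentate granule, inhibitory, astrocyte and OPC nuclei, 5, 12, 72, 0, 13 and 1 as reported. With DESeq2 they were 28, 112, 232, 14, 0 (80 at an unadjusted p under 0.05) and 1. Without TMM they were 3, 1, 19, 0, 14 and 11. Without the filter on low counts they were 302, 499, 569, 148, 14 and 26. With free RNA subtracted they were 2, 1, 0 (695 at an unadjusted p under 0.05), 1, 0 (211) and 1. With a UMI minimum of 1000 they were 3, 60, 75, 0, 22 and 26. At Leiden resolution 2 they were 5, 20, 67, 0, 23 and 1. With doublets kept they were 2, 4, 70 and 3 in the first 4 classes and 1 in OPC, and astrocytes gave no value. With the replicate number as a block they were 226, 170, 412, 26, 63 and 46. Nothing in the labels makes the numbers a pairing, and same-numbered libraries deviated together with r = 0.0946 in CA3, 0.148 in CA1 and 0.0823 in dentate granule nuclei.

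Leaving out 1 library gave 27 to 323 calls in CA3, 9 to 308 in CA1, 45 to 339 in dentate granule nuclei, 19 to 131 in inhibitory neurons, 8 to 26 in astrocytes and 13 to 25 in OPC. The lone library of a group is then assumed to vary like the other group. In CA3 every omission moved the count by over 1.5 times. In CA1 all but that of Control replicate 2 did, and in dentate granule nuclei all but that of Kat6a-cKO replicate 1. The cause was not tested.

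Among the neighbours, 1 gene was called in CA3 without the count filter (Itprid1, edgeR adjusted p = 0.0241), 1 with the block (Itprid1, 0.0390) and 0 to 1 with a library left out. In CA1 it was 1 without the filter (Adcyap1r1, edgeR adjusted p = 0.00095) and 0 to 1 with a library left out. In dentate granule nuclei, and in windows of 0.5, 2 and 5 Mb, 0 were called. Of the bHLH list, 1 gene was called in CA3 without the filter and 1 with the block, and 0 to 1 with a library left out, each time Bhlhe41, a circadian repressor that is named here for these calls (edgeR adjusted p = 0.0123, 0.0317 and, without Control replicate 2, 0.0426). In CA1 and dentate granule nuclei none of the bHLH list was called under any alternative run.

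The log2 fold change of Neurod6 ran from −0.59 to −0.32 in CA3 and from −0.75 to −0.47 in CA1, that of Gm3279 from 4.51 to 4.97 and from 4.72 to 4.87, and that of 6430584L05Rik in dentate granule nuclei from 1.29 to 1.49. In CA1 the last ran from 0.69 to 1.75, the lowest without Kat6a-cKO replicate 1. Neurod6 in dentate granule nuclei turned from −0.88 to 7.50 with free RNA subtracted, which left Control at 0, so this is a fitted value and not a bound. Oligodendrocytes were not named at the reported settings, so their alternatives gave no value. Depth limits the cre entry, with 157 and 150 counts in Kat6a-cKO nuclei, and Gm3279 in Control, with 112 and 111.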
